A study of Mus musculus with 9 samples.

Results

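Frizzled proteins and their co-receptors receive Wnt signals at the cell surface, and 10 genes of this kind were followed in the cortex of mouse embryos, the 6 Frizzled genes *Fzd1*, *Fzd2*, *Fzd3*, *Fzd7*, *Fzd8* and *Fzd9* and the 4 co-receptor genes *Lrp5*, *Lrp6*, *Ryk* and *Ror2*. They were taken by gene symbol from a table of 14670 genes, and 10 of 10 were found there. The other 3 Frizzled genes of the table (*Fzd4*, *Fzd5* and *Fzd6*) and 3 further co-receptors (*Ptk7*, *Reck* and *Tspan12*) are given beside them, whereas *Fzd10*, *Ror1*, *Musk* and *Adgra2* were not analysed here. Cortex was microdissected at E16.5, and 9 RNA libraries were made from it, 3 of each genotype. Controls are labelled +/+, and the methods describe them as heterozygous or wild-type littermates. *Fzd3* mutants are -/- for this receptor and *Celsr3* mutants are -/- for a large atypical cadherin that acts with it in axon guidance. Both lines are on a mixed C57Bl/6 and CD1 background, and both alleles are constitutive, so that every cell type of the dissected piece is mutant. Values are CPM (read counts scaled to library size) as the authors deposited them. The *Celsr3* mutant set carries the numbers 1, 2 and 4, and the other 2 sets carry 1 to 3.

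Wnt proteins bind the cysteine-rich domain of Frizzled receptors, which span the membrane several times and recruit Dishevelled inside the cell. With Lrp5 or Lrp6 as partner, the complex stabilizes beta-catenin, whereas with Ryk, Ror2 or Ptk7, or with the planar polarity proteins Celsr and Vangl, Frizzled receptors orient cells and axons without beta-catenin. By sequence the family falls into *Fzd1*, *Fzd2* and *Fzd7*, then *Fzd5* and *Fzd8*, then *Fzd4*, *Fzd9* and *Fzd10*, and finally *Fzd3* and *Fzd6*, and *Fzd3* is known for its part in the growth of long axon tracts in the forebrain.

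The *Fzd3* mutant libraries stood apart from the other 6 over the whole transcriptome. Across genes, which are not independent replicates, the Pearson correlation of log2(CPM + 0.5) was 0.9937 to 0.9968 within *Fzd3* mutants, 0.9924 to 0.9945 within controls and 0.9891 to 0.9932 between *Celsr3* mutants and controls, but 0.9749 to 0.9827 between *Fzd3* mutants and controls. In *Celsr3* mutants, library 4 differed from libraries 1 and 2 in genes of connective tissue, and *Col3a1* was at 87.6 CPM there against 6.86 and 4.95 CPM. The tissue carried the markers of cortical neurons, with *Neurod6* at 903 ± 28.9 and *Tbr1* at 339 ± 14.0 CPM in controls (s.d., n = 3). Both were lower in *Fzd3* mutants, *Neurod6* at 775 ± 15.2 CPM (log2 fold change -0.22, limma adjusted P = 0.00151) and *Tbr1* at 281 ± 5.35 CPM (-0.27, limma adjusted P = 0.00345).

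*Fzd3* itself, the gene mutated in 1 of the lines, is encoded on the minus strand at chr14:65192449-65262463 (GRCm38). Exon 3, described as deleted in the mutant allele, lies at chr14:65239718-65239914, is wholly coding and holds codons 64 to 129 of 666, in the Wnt-binding domain. It is printed here because it is the part of the gene that a mutant value would have to report, with the 7 cysteine codons in its reading frame in capitals:
*Fzd3* exon 3: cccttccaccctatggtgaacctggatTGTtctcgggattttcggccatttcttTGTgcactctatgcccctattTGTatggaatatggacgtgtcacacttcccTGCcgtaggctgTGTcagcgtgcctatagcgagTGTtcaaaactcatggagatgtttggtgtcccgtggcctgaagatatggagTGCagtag
The exon has 197 bases, 9.86% of the coding sequence but 1.55% of the 12734-base transcript, of which 80.7% is 3′ untranslated. Its length leaves a remainder of 2 on division by 3, and exon 2 joined to exon 4 reads into a stop after 67 codons. The table has 1 value for the whole gene and none for the exon.

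*Fzd3* RNA was at 58.0, 67.7 and 46.9 CPM in controls 1 to 3, at 46.5, 39.8 and 59.6 CPM in *Fzd3* mutants 1 to 3, and at 52.1, 61.1 and 54.8 CPM in *Celsr3* mutants 1, 2 and 4. The 3 ranges overlapped, and *Fzd3* mutant 3 was above 2 of the 3 controls. The log2 fold change of *Fzd3* mutants against controls was -0.24 (95% confidence interval -0.57 to 0.08, limma adjusted P = 0.24). Without *Fzd3* mutant 3 it was -0.40 and passed the threshold of 0.05 (limma adjusted P = 0.0457). The value of *Fzd3* was also -0.38 without control 3, -0.12 without control 2 and -0.11 without *Fzd3* mutant 2, none of which passed. Adjusted P values ran from 0.0457 to 0.633 over the other analyses. Mutants and controls were thus not told apart by this whole-gene value, which is no check of the labels. *Celsr3* did separate its own group, at 196, 243 and 214 CPM in controls against 122, 139 and 118 CPM in *Celsr3* mutants, and was at 253, 213 and 255 CPM in *Fzd3* mutants.

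Between genes, levels are comparable only per length, and were first expressed as CPM per kb of all annotated exons. On this scale *Fzd1* ranked 1 among the 9 Frizzled genes of the table, with 9.43 ± 1.33 in controls (s.d., n = 3), before *Fzd2* with 8.23 ± 1.41, *Fzd3* with 4.49 ± 0.816 and *Fzd8* with 3.86 ± 0.594. *Fzd7* followed with 2.23 ± 0.167, *Fzd9* with 1.68 ± 0.164 and *Fzd6* with 1.28 ± 0.0956, and *Fzd4* and *Fzd5* were lowest, at 0.314 ± 0.0451 and 0.202 ± 0.0262 CPM per kb. Control ranges overlapped between *Fzd1* and *Fzd2* and between *Fzd3* and *Fzd8*, and were apart between the other neighbours in this order. The order of the means was the same in both mutants. Per kb of coding sequence instead, *Fzd3* ranked 1 in all 3 genotypes, with 28.8 ± 5.23 in controls, where its range of 23.5 to 33.9 overlapped with 18.5 to 23.9 for *Fzd1*, so that its place depended on the length used. Among the co-receptors *Ryk* ranked 1 on each length scale in all 3 genotypes, with 21.3 ± 1.43 CPM per kb of all exons in controls, and *Lrp6* was at 7.11 ± 0.605, *Lrp5* at 3.16 ± 0.390 and *Ror2* at 0.786 ± 0.158.

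**Figure D1:**
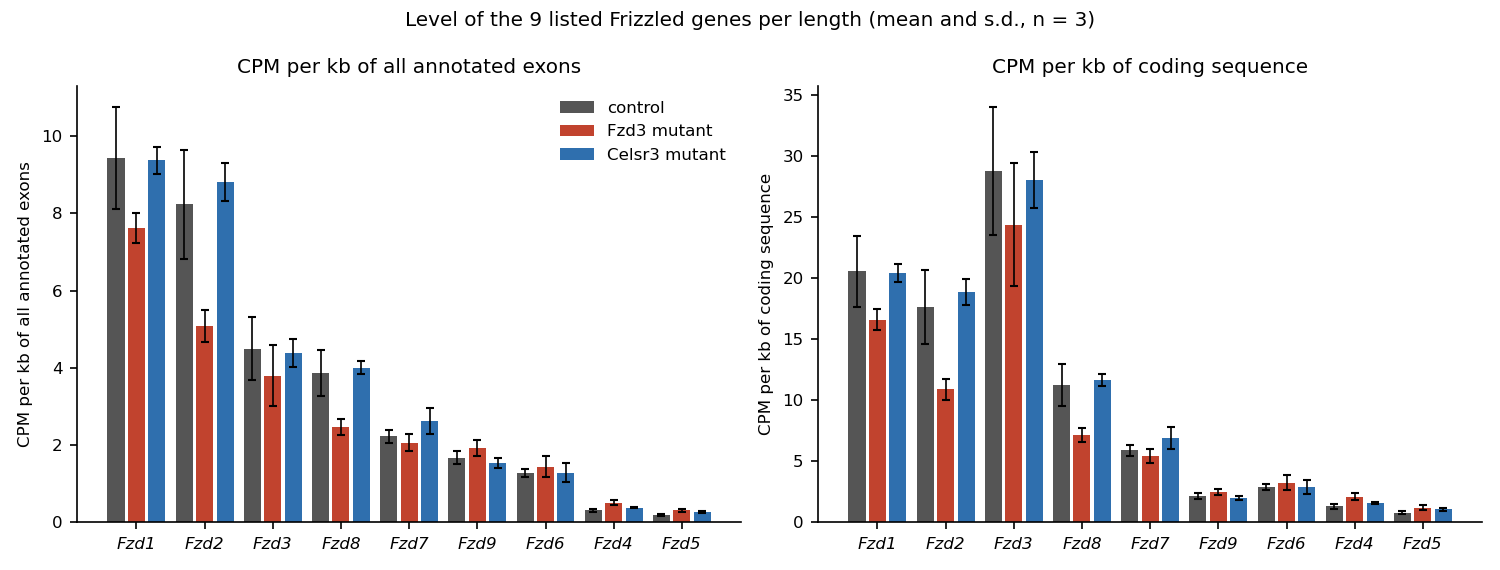
Mean level of the 9 listed Frizzled genes (bars, with s.d., n = 3 libraries) in controls, *Fzd3* mutants and *Celsr3* mutants, as CPM per kb of all annotated exons (left) and per kb of coding sequence (right). *Fzd1* leads on the left and *Fzd3* on the right, and *Fzd4* and *Fzd5* are lowest on both scales.

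In *Fzd3* mutants, 3 of the 10 receptor genes were lower than in controls past the threshold, all of them Frizzled genes, and none was higher. These were *Fzd1*, *Fzd2* and *Fzd8*. Without control 3 the count was 6, as *Lrp5*, *Lrp6* and *Ror2* were then lower too, and without control 2 the call of *Fzd1* was lost. The threshold was a limma adjusted P of 0.05 over 14670 genes, two-sided, and 29.8% of all genes passed it in this comparison, 14.8% lower and 15.0% higher. The share of receptor genes that differed was thus near that of all genes, while all of the differences pointed down. Ranges of the 3 mutant and 3 control libraries did not overlap for 4 of the 10 (the same 3 and *Ror2*), beside 43.8% of all genes. RNA was extracted from whole pieces of cortex, and fewer cells of a type cannot be told apart from less RNA per cell in any of these values. P values measure the spread between these samples, given in the methods as 3 of each genotype.

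*Fzd2*, a receptor for both branches of Wnt signalling, was at 30.9, 34.9 and 24.7 CPM in controls and at 16.9, 19.6 and 19.4 CPM in *Fzd3* mutants. Every mutant library was below every control, and the mutant mean was 61.7% of the control mean. On the log2(CPM + 0.5) scale used for all fold changes, which understates those of low genes, the difference was -0.67 (95% confidence interval -0.91 to -0.43, limma adjusted P = 0.0013). In *Celsr3* mutants *Fzd2* was at 30.2, 33.7 and 33.0 CPM, within the control range.

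*Fzd1*, its close relative, was at 37.2, 45.9 and 35.6 CPM in controls and at 31.3, 33.8 and 30.8 CPM in *Fzd3* mutants. The groups did not overlap, but the highest mutant and the lowest control were 33.8 and 35.6 CPM, and control 2 was far above the other controls. The log2 fold change was -0.30 (95% confidence interval -0.48 to -0.11, limma adjusted P = 0.024). This call rested on single libraries, since the value was -0.19 without control 2 (limma adjusted P = 0.0651), -0.28 without *Fzd3* mutant 1 (0.0754) and -0.27 without *Fzd3* mutant 3 (0.0617), with a range of 0.0106 to 0.0754 over all other analyses. *Fzd7*, the remaining member of that branch, was at 10.1, 10.9 and 9.36 CPM in controls and at 10.2, 9.57 and 8.27 CPM in *Fzd3* mutants, with overlapping groups and a log2 fold change of -0.11 (95% confidence interval -0.36 to 0.14, limma adjusted P = 0.499). The value of *Fzd7* was -0.17 without *Fzd3* mutant 1, -0.06 without control 2 and -0.03 without *Fzd3* mutant 3.

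*Fzd8*, known from radial glia of the forebrain, was at 21.3, 27.2 and 20.7 CPM in controls and at 14.0, 16.1 and 14.0 CPM in *Fzd3* mutants. Again every mutant library was below every control, at 63.7% of the control mean. The log2 fold change was -0.63 (95% confidence interval -0.85 to -0.40, limma adjusted P = 0.00112). Its relative *Fzd5*, near the bottom of the family, went the other way, from 1.60, 1.33 and 1.25 CPM in controls to 1.74, 2.31 and 2.35 CPM in *Fzd3* mutants. The groups of *Fzd5* were apart, with a log2 fold change of 0.47 (limma adjusted P = 0.0369), a call that was lost in 6 of 17 other analyses, among them those without control 2 (0.45), control 3 (0.42), *Fzd3* mutant 2 (0.42) or *Fzd3* mutant 3 (0.41). The limma adjusted P of *Fzd5* was 0.0565 to 0.118 where the call was lost and 0.0286 to 0.118 over all 17.

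*Fzd4*, the receptor of Norrin in blood vessels, was at 2.45, 2.04 and 1.86 CPM in controls and at 3.62, 3.71 and 2.88 CPM in *Fzd3* mutants. Its groups did not overlap, and the log2 fold change was 0.58 (95% confidence interval 0.28 to 0.88, limma adjusted P = 0.00905). *Fzd9*, a Frizzled first studied for its place in the Williams syndrome region, was at 3.53, 3.76 and 4.26 CPM in controls and at 4.97, 4.04 and 4.22 CPM in *Fzd3* mutants. The values of *Fzd9* overlapped, with a log2 fold change of 0.17 (95% confidence interval -0.09 to 0.44, limma adjusted P = 0.31), or 0.09 without *Fzd3* mutant 1. *Fzd6*, the closest relative of *Fzd3* and its partner in neural tube closure, was at 5.95, 5.81 and 6.67 CPM in controls and at 8.36, 5.81 and 6.59 CPM in *Fzd3* mutants. *Fzd3* mutant 1 alone was above the controls, and the log2 fold change of *Fzd6* was 0.15 (95% confidence interval -0.19 to 0.48, limma adjusted P = 0.504), or 0.011 without *Fzd3* mutant 1 and 0.26 without *Fzd3* mutant 2.

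**Figure D2:**
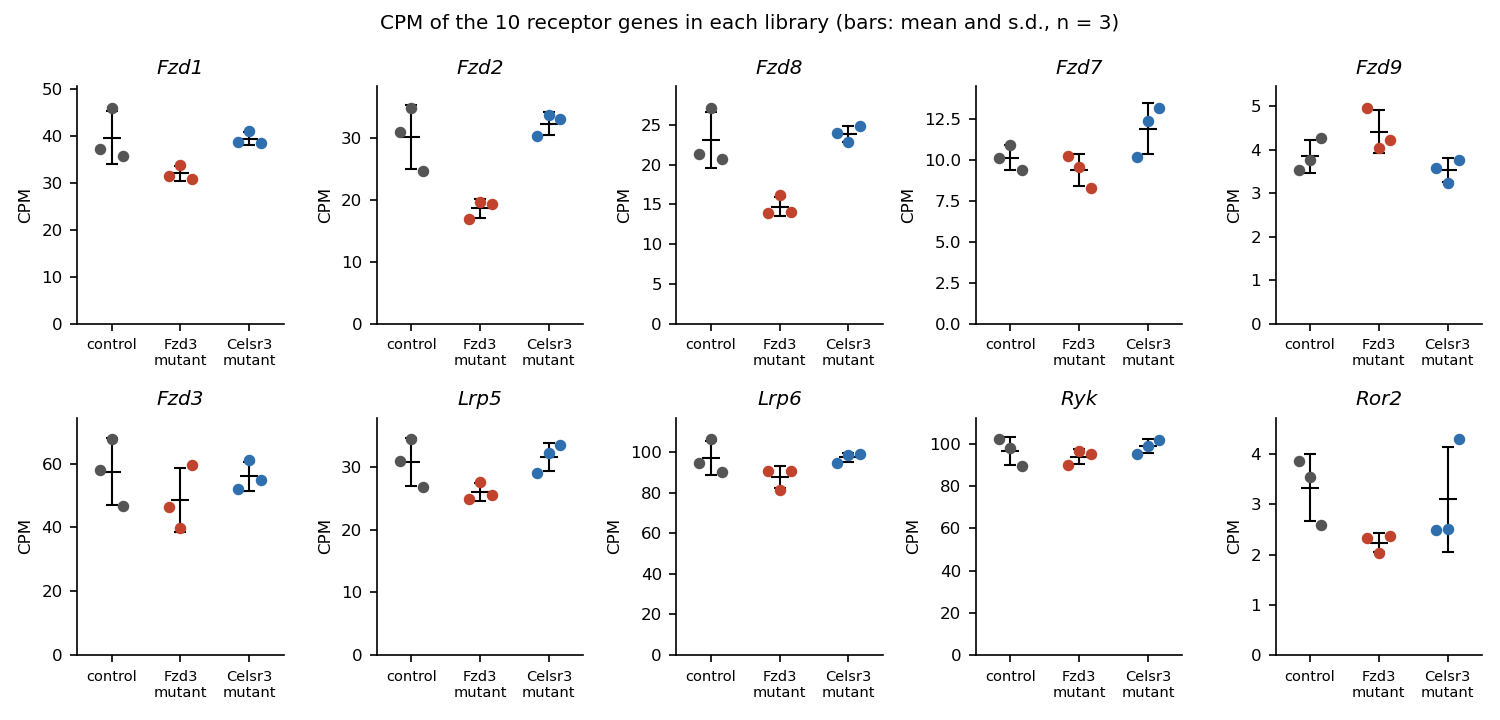
CPM of the 10 receptor genes in each of the 9 libraries (points, left to right in order of library number), with mean and s.d. of each genotype (bars, n = 3). *Fzd1*, *Fzd2* and *Fzd8* are lower in all 3 *Fzd3* mutants than in any control, and the groups of *Fzd3* overlap.

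Whether other Frizzled genes take the place of *Fzd3* in its mutant was asked of the 8 others in the table. Of these, 2 were higher (*Fzd4* and *Fzd5*), 3 were lower (*Fzd1*, *Fzd2* and *Fzd8*) and 3 did not pass the threshold (*Fzd6*, *Fzd7* and *Fzd9*), where 15.0% of all genes were higher and 14.8% lower. The rises were in the receptors with the least RNA, 0.314 to 0.507 CPM per kb of all exons for *Fzd4* and 0.202 to 0.309 for *Fzd5* in the group means, whereas *Fzd2* went from 8.23 to 5.08 and *Fzd8* from 3.86 to 2.46. Summed over the 8 genes, controls had 26.5, 30.8 and 24.5 CPM per kb, *Fzd3* mutants 21.3, 22.1 and 20.8, and *Celsr3* mutants 27.0, 28.7 and 29.1. All 3 *Fzd3* mutants were therefore below all 6 other libraries, and the sum without *Fzd3* was lower, not higher, in its mutant. Per kb of coding sequence the sums were 60.8, 70.7 and 55.9 in controls and 48.8, 51.0 and 47.6 in *Fzd3* mutants, with the same order. Per kb of all exons, *Fzd4*, *Fzd5*, *Fzd6* and *Fzd9* together had 3.37, 3.34 and 3.70 in controls and 4.69, 3.85 and 3.98 in *Fzd3* mutants. *Fzd1*, *Fzd2*, *Fzd7* and *Fzd8* together had 23.1, 27.4 and 20.8 in controls and 16.7, 18.2 and 16.8 in *Fzd3* mutants. This split follows the sign of each log2 fold change, so its directions are no separate result. The share of *Fzd3* in the Frizzled sum per kb of all exons was 14.6%, 14.7% and 13.0% for controls against 14.5%, 12.4% and 18.3% for its mutants, with overlap. No test was run on the sums, and only RNA was measured.

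**Figure D3:**
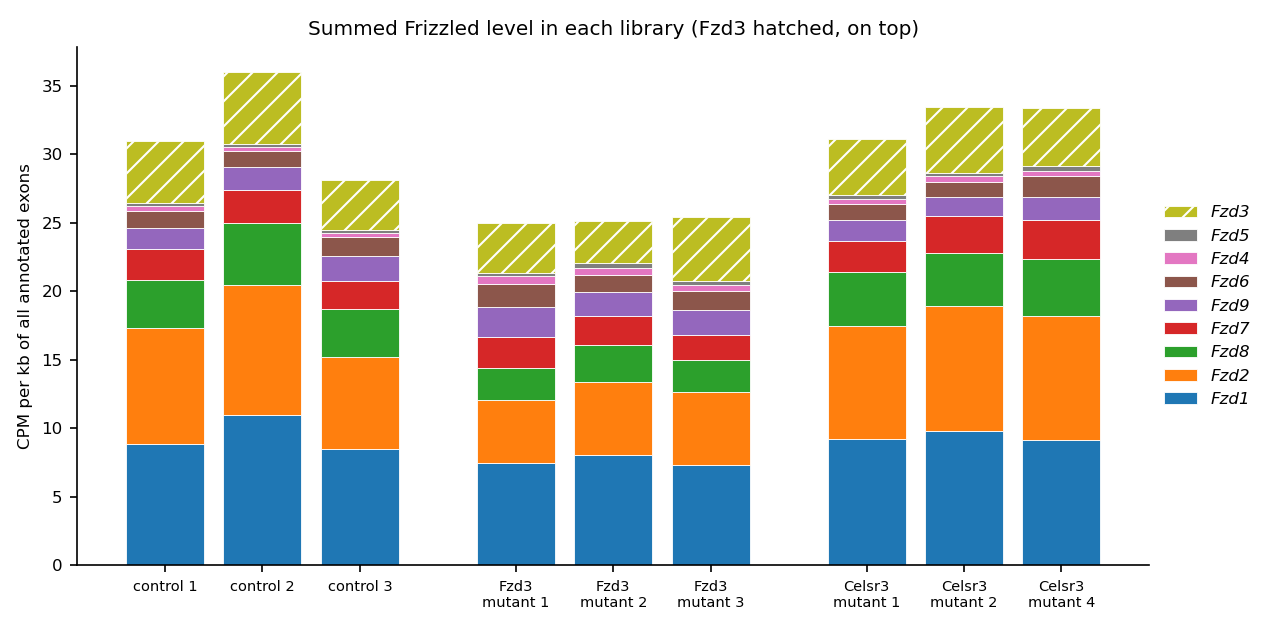
Summed level of the 9 listed Frizzled genes in each library, in CPM per kb of all annotated exons, with *Fzd3* hatched on top of the 8 others. The stack below *Fzd3* reaches 20.8 to 22.1 in *Fzd3* mutants and 24.5 to 30.8 in the other 6 libraries.

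Of the co-receptors of beta-catenin signalling, *Lrp5* was at 31.0, 34.5 and 26.9 CPM in controls and at 24.9, 27.6 and 25.5 CPM in *Fzd3* mutants. *Lrp6*, its more abundant relative, was at 94.8, 106 and 90.5 CPM in controls and at 90.9, 81.5 and 90.6 CPM in the mutants. The groups of both genes overlapped and neither passed, with a log2 fold change of -0.23 for *Lrp5* (95% confidence interval -0.43 to -0.04, limma adjusted P = 0.0721) and -0.15 for *Lrp6* (95% confidence interval -0.29 to -0.01, limma adjusted P = 0.104). Without control 3, the lowest control for 9 of the 10 receptor genes, both passed it, *Lrp5* at -0.33 (limma adjusted P = 0.0143) and *Lrp6* at -0.20 (limma adjusted P = 0.0437). Without control 2, the highest control for both, the values were -0.15 for *Lrp5* and -0.08 for *Lrp6*, and without *Fzd3* mutant 2 that of *Lrp6* was -0.10. Over all other analyses the adjusted P ran from 0.0143 to 0.256 for *Lrp5*, which also passed with a replicate block (0.0443), and from 0.0437 to 0.357 for *Lrp6*.

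Among co-receptors that act without beta-catenin, *Ryk*, an atypical kinase that repels axons in response to Wnt, was at 102, 98.1 and 89.6 CPM in controls and at 89.9, 96.7 and 95.2 CPM in *Fzd3* mutants. These values overlapped throughout, and the log2 fold change of -0.04 had the narrowest interval of the 10 genes (-0.16 to 0.08, limma adjusted P = 0.625). The value of *Ryk* was 0.0023 without control 1, -0.093 without control 3, -0.0085 without *Fzd3* mutant 1, -0.061 without *Fzd3* mutant 2 and -0.024 with columns rescaled to the same sum. *Ror2*, the receptor kinase for Wnt5a, was at 3.87, 3.55 and 2.58 CPM in controls and at 2.32, 2.03 and 2.37 CPM in *Fzd3* mutants. Its groups were apart by little, and the log2 fold change of -0.47 (95% confidence interval -0.91 to -0.04) did not pass (limma adjusted P = 0.0959). It did pass without control 3, at -0.62 (limma adjusted P = 0.045), and without *Celsr3* mutant 4, still at -0.47 (limma adjusted P = 0.0396), and the adjusted P of *Ror2* ranged from 0.0396 to 0.262. *Ptk7*, a planar polarity co-receptor outside the 10, was at 50.6, 56.9 and 47.7 CPM in controls and at 42.6, 41.4 and 40.9 CPM in *Fzd3* mutants. All mutant libraries of *Ptk7* were below all controls, with a log2 fold change of -0.31 (limma adjusted P = 0.00447). *Reck* (0.12) and *Tspan12* (-0.15), partners of vascular Wnt and Norrin receptors, did not pass (limma adjusted P = 0.473 and 0.193). *Reck* was at 0.05 without *Fzd3* mutant 1, and *Tspan12* was at -0.10 without control 3 and -0.09 without *Fzd3* mutant 3.

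**Figure D4:**
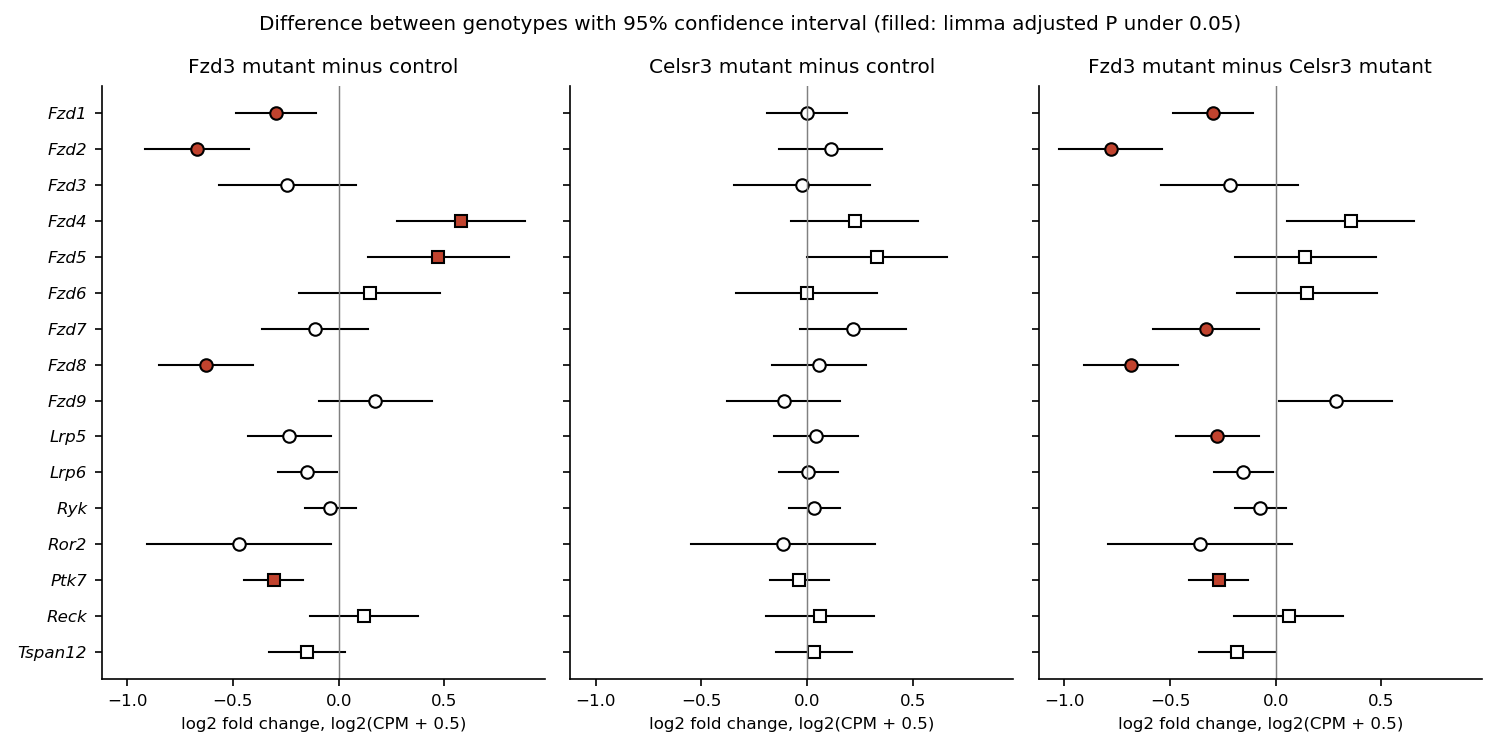
Log2 fold change of each receptor gene with its 95% confidence interval in the 3 comparisons (circles, the 10 receptor genes; squares, the 6 others of the table; filled, limma adjusted P under 0.05). Filled circles lie left of 0 in both comparisons with *Fzd3* mutants, and there are none between *Celsr3* mutants and controls.

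*Celsr3* mutants gave another picture. Of the 10 receptor genes, 0 differed from controls past the threshold in limma, 0 had an unadjusted P under 0.05, and 0 had groups that did not overlap. Among all genes, 0.307% passed the threshold, 800 of 14670 had an unadjusted limma P under 0.05, and 10.4% did not overlap. Precision weights from read depth, in limma, also called 0. The log2 fold changes lay between -0.11 (*Ror2* and *Fzd9*) and 0.22 (*Fzd7*). *Fzd7* was at 10.2, 12.3 and 13.2 CPM and *Ror2* at 2.49, 2.50 and 4.30 CPM in *Celsr3* mutants 1, 2 and 4, so that library 4, the one with high *Col3a1*, was the highest for both. Without that library the log2 fold change was 0.14 for *Fzd7* and -0.34 for *Ror2*, with the replicate block it was 0.08 for *Fzd7* and -0.40 for *Ror2*, and none of these passed. *Ror2* was at -0.011 without control 1, -0.07 without control 2, -0.26 without control 3, 0.0015 without *Celsr3* mutant 1 and -0.0022 without *Celsr3* mutant 2. *Fzd9* was at -0.04 without control 3 and -0.06 without *Celsr3* mutant 2. The interval bounded the change of *Lrp6* to between -0.13 and 0.15 and that of *Ryk*, a gene 5.99 Mb from *Celsr3* on chromosome 9, to between -0.09 and 0.15, while for *Fzd3* itself it reached from -0.35 to 0.30. *Fzd5*, outside the 10, was at 1.88 ± 0.221 CPM (s.d., n = 3) with every library above all controls, and had a log2 fold change of 0.33 (limma adjusted P = 0.923).

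Both comparisons above share the same 3 control samples, and the mutants were also set against each other. Here 5 of the 10 receptor genes were lower in *Fzd3* than in *Celsr3* mutants and none was higher, beside 29.6% of all genes (14.3% lower and 15.3% higher). *Fzd2* (-0.78, 95% confidence interval -1.03 to -0.54, limma adjusted P = 0.00063) and *Fzd8* (-0.68, 95% confidence interval -0.91 to -0.46, limma adjusted P = 0.000771) led, and every *Fzd3* mutant library was below every *Celsr3* mutant library for both. *Fzd1* followed at -0.29 (limma adjusted P = 0.0244), *Lrp5* at -0.28 (0.0391) and *Fzd7* at -0.33 (0.0497). Of these, *Fzd2* and *Fzd8* passed in 18 of 18 other analyses, while the call of *Fzd1* was lost in 4, that of *Lrp5* in 6 and that of *Fzd7* in 12 of 18. Adjusted P values ran from 0.0039 to 0.0839 for *Fzd1*, 0.0171 to 0.185 for *Lrp5* and 0.0171 to 0.317 for *Fzd7*. With the replicate block the values were -0.18 for *Lrp5* and -0.19 for *Fzd7*. The count fell from 5 to 2 without *Fzd3* mutant 1, *Fzd3* mutant 3 or *Celsr3* mutant 2, and to 3 without control 1 or *Celsr3* mutant 4. *Ptk7* was lower as well (-0.27, limma adjusted P = 0.00866), and *Fzd4* (0.36, limma adjusted P = 0.0731), *Fzd9* (0.28, 0.101), *Lrp6* (-0.15, 0.0922) and *Ror2* (-0.36, 0.2) did not pass although their groups were apart. *Fzd4* passed without *Fzd3* mutant 3 (0.46, limma adjusted P = 0.0366, range 0.0366 to 0.21), *Lrp6* passed without control 2 (-0.15, limma adjusted P = 0.0461, range 0.0461 to 0.354), and *Ptk7* lost its call with the replicate block (-0.21, limma adjusted P = 0.0991, range 0.00296 to 0.0991). The value of *Ror2* was -0.13 without *Celsr3* mutant 4 and -0.07 with the block, and that of *Lrp6* was -0.10 without *Fzd3* mutant 2.

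Gene structure did not set the lower receptors apart. *Fzd1* (chr5:4753839-4758035), *Fzd2* (chr11:102604396-102608058) and *Fzd8* (chr18:9212163-9218136) each have 1 coding exon and no annotated overlapping gene, but so do *Fzd7* and *Fzd9*, which did not pass, and *Fzd5*, which was higher, has 1 coding exon too. The annotated transcripts of 14 receptor genes (Frizzled genes with *Fzd10*, *Lrp5*, *Lrp6*, *Ryk* and *Ror2*) form 91 pairs, and 0 of these shared an exact stretch of 50 bases. Stretches with mismatches, the other genes of the genome, and *Ptk7*, *Reck* and *Tspan12* were not compared. Whether reads were misplaced between genes was therefore not tested. *Fzd3*, *Fzd5*, *Fzd6*, *Ryk*, *Ptk7*, *Reck* and *Tspan12* overlap other annotated genes, and since the use of strand in counting was not given in the sources used here, reads of such neighbours may be included in their values.

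Markers of cell types were read in the same libraries. Of 9 markers of radial glia, the dividing stem cells of the cortex, 7 were lower in *Fzd3* mutants than in controls and none was higher, beside 14.8% lower among all genes, and their summed level was 1417, 1471 and 1435 CPM in controls, 1085, 1148 and 1037 CPM in *Fzd3* mutants and 1289, 1326 and 1410 CPM in *Celsr3* mutants. Of 6 markers of intermediate progenitors 6 were lower, with sums of 412, 439 and 363 CPM in controls, 232, 253 and 288 CPM in *Fzd3* mutants and 400, 456 and 464 CPM in *Celsr3* mutants. In both lists the sums of the *Fzd3* mutants were below those of all other libraries. Against controls, 43.8% of all single genes had ranges that did not overlap. In controls, the most abundant marker was *Vim* for radial glia (483 ± 18.2 CPM in controls, 313 ± 6.39 in *Fzd3* mutants) and *Eomes* for intermediate progenitors (178 ± 15.5 and 113 ± 16.1, s.d., n = 3). The other 2 radial glia markers, *Fabp7* (463 ± 38.0 and 412 ± 62.0 CPM) and *Slc1a3*, did not pass. Between the mutants, 7 of the 9 were lower in *Fzd3* than in *Celsr3* mutants, but *Slc1a3* was higher past the threshold. No marker of either list was at 0 in any library.

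Vessels, where *Fzd4* is known to act, were followed by 8 endothelial markers. Of these, 3 were higher in *Fzd3* mutants and none was lower, where 15.0% of all genes were higher and 14.8% lower, as for the lists that follow. The endothelial sums were 114, 115 and 116 CPM in controls, 166, 157 and 147 CPM in *Fzd3* mutants and 123, 109 and 162 CPM in *Celsr3* mutants, led by *Kdr* (31.6 ± 0.587 and 47.8 ± 5.23 CPM in controls and *Fzd3* mutants). Of 8 microglial markers 4 were higher and none was lower, with sums of 45.1 ± 3.37 CPM in controls, 64.2 ± 11.5 CPM in *Fzd3* mutants and 51.6 ± 6.58 CPM in *Celsr3* mutants (s.d., n = 3), led by *Csf1r*. Of 6 listed genes of meninges and fibroblasts 1 was higher (*Pdgfra*, the most abundant of them in controls). Their sums were 27.5, 28.0 and 29.5 CPM in controls and 53.6, 48.9 and 31.8 CPM in *Fzd3* mutants. *Celsr3* mutants 1, 2 and 4 had 34.5, 28.3 and 195 CPM. Group means of *Pdgfra* alone were 15.4 (control), 26.3 (*Fzd3* mutant) and 17.4 CPM (*Celsr3* mutant). The list sum averaged 28.3, 44.7 and 85.8 CPM in the same order, the last raised by library 4. *Pdgfra* thus gave much of the sum of *Fzd3* mutants and did not follow the rise in *Celsr3* mutants. No change of meninges in *Fzd3* mutants is therefore read from this list. Of the other lists, 0 of 7 markers of GABA neurons and ventral telencephalon and 1 of 7 red cell genes (*Hbb-y*, lower) passed. In the list for thalamus 3 of 5 genes passed, all lower. *Lhx2*, the most abundant, gave 185 of its 246 CPM in controls (means), so that no change of thalamic tissue is read from this list. The 8 genes of choroid plexus and cortical hem were not analysed here. None of the markers in the table was at 0 in any library. The part of these cell types in the receptor differences was not tested.

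**Figure D5:**
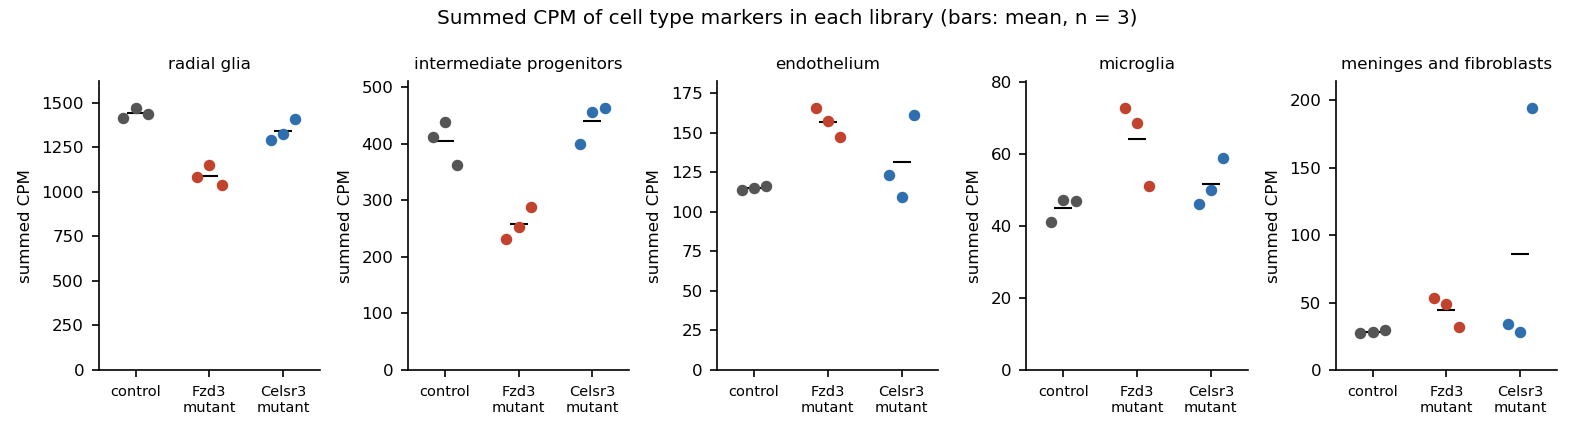
Summed CPM of 5 lists of cell type markers in each library (points, left to right in order of library number), with the mean of each genotype (bars, n = 3). The sums of radial glia and intermediate progenitors are lowest in the 3 *Fzd3* mutants, and *Celsr3* mutant 4 reaches 195 CPM for meninges and fibroblasts.

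Upstream of the receptors, 7 of 19 Wnt genes were in the table, of which 1 was lower and 1 higher in *Fzd3* mutants, 28.6% of them and near the 29.8% of all genes. *Wnt7b* was at 163, 205 and 156 CPM in controls and at 152, 138 and 144 CPM in *Fzd3* mutants, apart by little, with a log2 fold change of -0.26 (limma adjusted P = 0.0402) that did not pass in 7 of 18 other analyses and was -0.15 without control 2. *Wnt3*, a weakly expressed gene, was at 0.828, 0.772 and 0.752 CPM in controls and at 2.18, 1.86 and 1.53 CPM in *Fzd3* mutants, higher in each (0.87, limma adjusted P = 0.00721). *Wnt7a* (23.1 ± 2.03 CPM in controls and 21.7 ± 2.15 in *Fzd3* mutants), *Wnt5a* (6.79 ± 1.21 and 8.35 ± 0.885), *Wnt5b* (2.73 ± 0.767 and 2.86 ± 0.300) and *Wnt2b* (0.936 ± 0.107 and 1.16 ± 0.333) did not pass.

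Of 10 listed genes for R-spondin signalling and receptor turnover, 3 were higher in *Fzd3* mutants and none was lower, a share near the 29.8% of all genes. R-spondins protect Frizzled and Lrp6 from removal by binding Lgr receptors. *Rspo2* was at 3.29, 2.18 and 3.64 CPM in controls and at 11.4, 9.61 and 10.2 CPM in *Fzd3* mutants (1.64, limma adjusted P = 0.000149), and its receptor *Lgr4* was at 5.49, 5.01 and 5.07 CPM in controls and at 11.1, 11.1 and 10.3 CPM in *Fzd3* mutants (0.99, limma adjusted P = 5.60e-05). Both were apart from the controls by more than either group's spread. *Lgr5*, of the same kind, was higher from a low level (0.305 ± 0.197 to 1.65 ± 0.184 CPM, 1.44, limma adjusted P = 0.000489), with 2.26 at a pseudocount of 0.1 and 2.73 with precision weights. *Tmem59*, *Mest*, *Mesdc2*, a chaperone of Lrp5 and Lrp6, and *Rspo3* did not pass, with log2 fold changes of 0.03, -0.05, -0.08 and -0.36.

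Inside the cell, 4 of 19 transducers were lower and 1 was higher in *Fzd3* mutants, 26.3% of them beside 29.8% of all genes. *Ctnnb1*, which encodes beta-catenin, was at 1208, 1240 and 1189 CPM in controls and at 983, 989 and 1044 CPM in *Fzd3* mutants, all of them below all controls (-0.27, limma adjusted P = 0.000568). *Dvl2* (-0.15), *Dvl3* (-0.20) and *Axin1* (-0.25) were lower and *Dvl1* (0.17) was higher, but each of these 4 calls was lost in 2 to 5 of 18 other analyses. *Apc*, *Apc2*, *Csnk1a1* and *Gsk3b* did not pass, with log2 fold changes of 0.07, -0.05, 0.05 and -0.07. Of 11 listed targets of beta-catenin, 5 passed (45.5%, beside 29.8% of all genes), of which 2 were lower (*Nkd1*, 20.6 ± 4.16 to 9.92 ± 0.776 CPM; *Ccnd1*, 42.8 ± 4.52 to 23.2 ± 1.61) and 3 were higher (*Nkd2*, 9.28 ± 1.17 to 17.2 ± 2.78; *Myc*, 13.1 ± 2.16 to 29.5 ± 2.02; and *Lgr5*). *Tnfrsf19* (-0.15), *Axin2* (-0.20), *Znrf3* (-0.07) and *Fzd7* did not pass. The list thus had members in both directions, with a median of -0.11 beside -0.00056 for all genes.

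In planar cell polarity, where Frizzled receptors face Vangl proteins across cell borders, 3 of 15 listed genes were lower and 4 higher in *Fzd3* mutants, 46.7% of them beside 29.8% of all genes, and the list also holds *Islr2*, which is not a planar polarity gene. *Celsr1*, the cadherin of dividing progenitors, was at 137, 193 and 141 CPM in controls and at 98.8, 87.5 and 111 CPM in *Fzd3* mutants (-0.65, limma adjusted P = 0.00271). *Vangl2* was at 161, 205 and 142 CPM in controls and at 117, 117 and 126 CPM in *Fzd3* mutants (-0.48, limma adjusted P = 0.00501). Neither overlapped with its controls, and *Ankrd6* was lower too (-0.32). *Prickle2* (0.70), the formin genes *Daam1* (0.39) and *Daam2* (0.76) and *Vangl1* (0.40) were higher, although *Vangl1* kept its call in 7 of 17 other analyses. *Celsr3* (0.14, or 0.07 without control 1, 0.226 without control 2 and 0.228 without *Fzd3* mutant 2), *Celsr2* (-0.18), *Scrib* (-0.03), *Fuz* (-0.02) and *Islr2* (-0.02) did not pass. Against controls, *Celsr3* mutants had 1 of these 15 genes past the threshold, *Celsr3* itself (-0.78, limma adjusted P = 0.0018), a call that ended with the replicate block (-0.71, limma adjusted P = 0.0699, range 0.00136 to 0.0699), and none of the other pathway lists had any.

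*Fzd3* RNA varied between libraries of 1 genotype more than it differed between genotypes, and the genes that varied most like it over the 9 libraries were *Pdpk1* (Pearson r = 0.988), *Ubn2* (0.979), *Helz* (0.975), *Dcp2* (0.964) and *Nr2c2* (0.964), out of 11584 others with a mean of at least 5 CPM. These values describe 9 libraries of 3 genotypes and carry no test. *Helz* was at 73.7, 84.3 and 67.6 CPM in controls and at 63.8, 55.2 and 78.4 CPM in *Fzd3* mutants, with *Fzd3* mutant 3 the highest of its group as for *Fzd3*. All 5 have long transcripts, from 7161 to 14644 bases, longer than 91.5% to 99.5% of the 13786 genes whose length was matched, and *Fzd3* with 12734 bases was longer than 99.0% of them. Of the receptors, *Lrp6* was closest to *Fzd3*, with r = 0.865.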

How the data were processed

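The authors deposited CPM values per gene, and these 9 columns were used as they stand. Per the labels, RNA was taken with Trizol (the methods name RNeasy), 1 µg of total RNA went into each library, and a company made and sequenced the libraries. The submitters' processing notes list FastQC, TopHat, Bowtie, TopHat2, Cufflinks 2.1.1 and edgeR 2.12, with builds GRCm38 and GRCh37, without roles. Annotation, counting and strand use are not given in the sources used here. Columns summed to 990141 to 1012199 CPM. All values (100%) were whole multiples of a step per column (within 0.1 step), and the largest distance in a column was 2.44e-05 to 0.000186 step. Only 21 to 65 values per column lay within 20 times its smallest value, and the rule set for accepting steps as single reads asked for more. The steps would give 39857305 to 69600589 reads on the listed genes if a step is 1 read, and 3 such reads correspond to 0.0427 to 0.0752 CPM, counting error only.

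The test was limma 3.58.1 under R 4.3.3 (eBayes with a trend after lmFit and contrasts) on log2(CPM + 0.5), all 9 libraries in 1 fit, means under 0.5 CPM filtered out (0 of 14670 genes), Benjamini-Hochberg adjustment over all of them. The test was checked on simulated data, where it called 79 of 100 genes changed 1.5-fold and 99 of 100 changed 2-fold, with 9 false calls. Plots came from matplotlib 3.10.9 and tables from pandas 2.3.3 and numpy 2.4.6, under Python 3.11.15. Gene positions, lengths and the exon sequence come from GENCODE M21 (GRCm38), which need not be the annotation the authors used. The 10 members and the lists of other genes were chosen with earlier results of these data known. Named were the members, the other receptors of the table, *Celsr3*, the genes of the other pathway lists past the threshold in either mutant against controls with up to 4 of the most abundant others, and the 5 genes most like *Fzd3*; *Col3a1*, *Neurod6*, *Tbr1* and the single marker genes were picked once their levels were known. Tried besides were a replicate block, omission of each library, fits of 2 genotypes alone, and other scaling, filters and pseudocounts, and precision weights, which rest on these steps, were added after seeing the data.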

Additional observations from a re-analysis of the deposited data

How the results depend on the processing

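With a pseudocount of 0.1 or 1, no filter or one at 5 CPM, columns rescaled to the same sum, median-ratio scaling, only the genotypes compared, a replicate block, precision weights, or any library left out, *Fzd2* and *Fzd8* kept their direction and their calls in both comparisons with *Fzd3* mutants. The number of receptor genes that differed was 2 to 6 between *Fzd3* mutants and controls with a library left out (6 without control 3) and 2 to 5 between the mutants. Replicate numbers were not used as pairs. Deviations of same-numbered *Fzd3* mutants and controls correlated at -0.199 to -0.0697, and over all groups the 7 same-numbered pairs ranged from -0.199 to 0.192 (*Fzd3* mutant 1 with *Celsr3* mutant 1) and the 20 others from -0.163 to 0.188. With the number as a block, in which *Celsr3* mutant 4 stands alone, 29 genes differed between *Celsr3* mutants and controls (45 without it) and 2101 between the mutants (4346), with 2 receptor genes (5), while 4 receptor genes differed between *Fzd3* mutants and controls. The block lost the call of *Celsr3* itself (-0.71, limma adjusted P = 0.0699, range 0.00136 to 0.0699). Changes of sign concerned values near 0 that had not passed. For *Celsr3* mutants against controls, the block gave -0.021 for *Fzd8*, -0.053 for *Lrp5*, -0.019 for *Lrp6*, -0.0113 for *Ryk*, -0.040 for *Reck* and -0.0045 for *Tspan12*, columns of the same sum gave 0.0098 for *Fzd1* and 0.00839 for *Fzd6*, and precision weights, chosen after seeing the data, gave 0.027 for *Fzd6*. Leaving out a library gave -0.072 to 0.11 for *Fzd1*, -0.025 to 0.22 for *Fzd2*, -0.16 to 0.10 for *Fzd3*, -0.15 to 0.083 for *Fzd6*, -0.012 to 0.18 for *Fzd8*, -0.050 to 0.13 for *Lrp5*, -0.044 to 0.072 for *Lrp6*, -0.093 to 0.034 for *Ptk7*, -0.022 to 0.16 for *Reck*, -0.34 to 0.0015 for *Ror2*, -0.020 to 0.075 for *Ryk* and -0.0018 to 0.090 for *Tspan12* in that comparison, -0.093 to 0.0023 for *Ryk* between *Fzd3* mutants and controls, and -0.038 to 0.14 for *Reck* between the mutants. The filter at 5 CPM leaves no value for *Fzd4*, *Fzd5*, *Fzd9* and *Ror2*, and it moved the share of higher genes among those that differ between *Celsr3* mutants and controls from 42.2% to 52.9%. The planned tests on whole reads (edgeR and DESeq2) were not run, because each column has fewer low values than the rule for accepting steps as whole reads asked for. The precision weights used the same steps without this rule.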
